A study of Sus scrofa with 15 samples.

Results

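Greatwall kinase, encoded by MASTL, acts on protein phosphatase 2A (PP2A) through a pair of small proteins, and the transcripts of this kinase, its substrates and the phosphatase were followed in pig oocytes. The rule named 10 genes: MASTL, ENSA, ARPP19, PPP2CA, PPP2CB, PPP2R1A, PPP2R2A, PPP2R2D, PPP2R5C and PPP1CC. Pig Ensembl identifiers were found for 9 of them among the 22516 rows of the gene table, and PPP2R2D was not analysed here. All 9 passed the filter on low counts.

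As background, entry into meiotic M phase needs both active cyclin B-CDK1 and a brake on the phosphatase that removes its phosphates. Greatwall, which CDK1 activates, phosphorylates ENSA and ARPP19. In that form they bind and inhibit PP2A that carries a B55 regulatory subunit. PP2A is a trimer of a catalytic subunit (PPP2CA or PPP2CB), a scaffold (PPP2R1A or PPP2R1B) and a regulatory subunit, which in B55 forms comes from a family that includes PPP2R2A and PPP2R2D, and in B56 forms from a family that includes PPP2R5C. PPP1CC is a catalytic subunit of PP1, a phosphatase known to act on Greatwall at exit from M phase. In oocytes, Greatwall is known for its part in the progress from meiosis I to the arrest at metaphase II.

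The libraries were 15 pig RNAseq libraries from oocytes of sow ovaries, 5 in each of 3 groups. GV oocytes, at the germinal vesicle stage, were taken without culture, MII oocytes had put out a polar body after 44 h of in vitro maturation (IVM), and ‘damaged’ oocytes had none after the same 44 h. The 44 h is that of the labels, and the study's methods give 42 to 44 h. By the study's methods, 5 independent collections each gave 15 oocytes per group, stripped of cumulus cells and pooled in a library. No genotype, strain or age was given for the sows, and the ‘damaged’ group was defined by the missing polar body alone. GV stands for uncultured oocytes, so meiotic stage and time in culture cannot be told apart in a comparison with GV.

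Totals ran from 6.40 to 23.6 M estimated counts per library, and GV library 3, the lowest, was left out of the fits because the study removed 1 GV library for depth. It is given beside the others below. In the gene table, 7 of the 15 columns summed to the total of a differently labelled library, so those columns were not used and gene counts were computed for every library from its own transcript file. Over the other 8 columns the computed counts of the 9 genes lay within 0.00117% of the deposited ones. The transcripts of each gene were chosen to match those 8 columns, so this closeness was built in. It is no check on the libraries of the 7 unused columns. The contrast of MII with ‘damaged’ oocytes, and every replicate number, rest on how the transcript files are labelled. Between libraries of a group the spread exceeded counting error in all 30 pairs, with a chi-square per gene of 13.8 to 192.

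The oocyte label was checked with 11 marker genes (12 listed), whose summed TPM was 11626 to 20968 in GV, 4207 to 6551 in MII and 4689 to 5959 in ‘damaged’ libraries. None of the 11 was at 0 in every library of a group. For 10 of 15 listed cumulus and granulosa cell markers with a value, the sum was 3.54 to 7.29 TPM in GV, 1.08 to 4.52 in MII and 1.42 to 1.94 in ‘damaged’ libraries, with AMH at 0 in every MII library. The sum of 5 blood and immune cell markers was 5.09 to 24.1 TPM in GV, 0.994 to 1.62 in MII and 1.53 to 2.01 in ‘damaged’ libraries, with CD68 at 0 in every MII library. The sum of the blood markers was higher in every GV library than in any cultured one, with CD14 at up to 21.9 TPM. That of the cumulus markers was higher in every GV library than in any ‘damaged’ one, and overlapped between GV and MII libraries. The part of both marker sets in the differences below was not tested.

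Across all genes, 62.4% of the 13149 tested differed between MII and GV oocytes at a false discovery rate (FDR) under 0.01, and 61.3% between ‘damaged’ and GV oocytes. Of the 9 genes studied here, 5 differed in each, with 3 higher and 2 lower after culture, where 28.2% and 34.2% of all genes were higher and lower in MII and 27.9% and 33.4% in ‘damaged’ oocytes. MASTL, PPP2R5C and PPP1CC were higher with TMM factors, the latter pair not with library sizes alone, and ARPP19 and PPP2R2A were lower. The share called among the 9 was near that of all genes. With the study's further limit of an absolute log2 fold change over 2, only ARPP19 of the 9 was a DEG in each comparison, and it was lower. Among all genes, 21.5% were DEGs in MII (4.49% higher, 17% lower) and 20.4% in ‘damaged’ oocytes (4.05% higher, 16.3% lower). The comparisons share their GV libraries, so agreement between them is not independent.

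The scaling between libraries decided several of these calls. TMM factors assume that most genes do not differ. In the fit of 14 libraries they were 1.35 to 1.73 in the 4 GV libraries, 0.795 to 0.881 in MII and 0.826 to 0.923 in ‘damaged’ libraries. With them, the tested genes had a median log2 fold change of -0.17 (MII versus GV) and -0.14 (‘damaged’ versus GV), and with library sizes alone of -1.08 and -1.0. All-gene calls were 3705 higher and 4497 lower with TMM factors in MII versus GV, but 1447 higher and 7557 lower with library sizes. In ‘damaged’ versus GV they were 3673 higher and 4393 lower, against 1475 higher and 7349 lower. Among the 9 genes, library sizes gave 1 higher and 6 lower in MII versus GV, where 68.5% of all genes were called (11% higher, 57.5% lower), and 1 higher and 5 lower in ‘damaged’ versus GV, where 67.1% were (11.2% higher, 55.9% lower). MASTL was the gene that stayed higher, and ARPP19 and PPP2R2A stayed lower, under both scalings. Levels below are CPM (counts scaled per library) with TMM factors set over all 15 libraries, unless another scale is named. Those factors were 1.30 to 1.67 in GV, 0.768 to 0.851 in MII and 0.798 to 0.892 in ‘damaged’ libraries. Fold changes are from the fit of 14 libraries. On a relative scale, fewer transcripts of a gene and more of all others cannot be told apart, nor can fewer oocytes with a transcript and less of it per oocyte. The cDNA was primed at poly(A) tails, so a change in a transcript's amount and one in its tail cannot be told apart either.

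**Figure D1:**
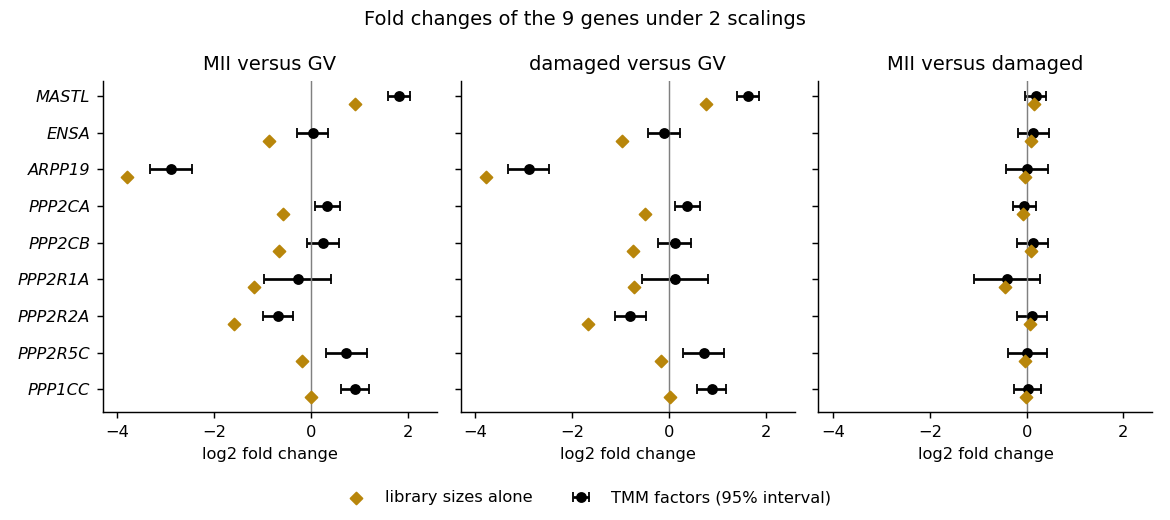
Log2 fold changes (horizontal axes) of the 9 genes with TMM factors (circles, bars are 95% intervals) and with library sizes alone (diamonds) in 3 comparisons. MASTL lies right of 0 and ARPP19 and PPP2R2A left of 0 against GV under both scalings, and the intervals of all 9 genes span 0 between MII and ‘damaged’ oocytes.

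MASTL, the Greatwall kinase gene (chr10:48855895-48877504 in the RefSeq annotation of Sscrofa11.1), rose in oocytes after culture. Its level was 196, 191, 189 and 193 CPM in GV libraries 1, 2, 4 and 5 and 172 CPM in GV library 3. In MII libraries 1 to 5 it was 764, 705, 647, 707 and 589 CPM. In ‘damaged’ libraries 1 to 5 it was 572, 636, 595, 617 and 567 CPM. Every cultured library lay above every GV library, and the ranges of the MII and ‘damaged’ libraries overlapped. Among all genes, 59.9% had no overlap between MII and the 4 fitted GV libraries (26.9% higher, 33% lower), as did 6 of the 9 genes (4 higher, 2 lower). Between ‘damaged’ and GV it was 58.3% (26.5% higher, 31.9% lower) and 5 of the 9 (3 higher, 2 lower). Means were 192 ± 2.62 (SD, n = 4), 682 ± 66.9 (n = 5) and 597.3 ± 29.4 CPM (n = 5). The rise was 3.55-fold in MII (log2 1.83, SE 0.109, FDR 3.3e-11) and 3.11-fold in ‘damaged’ oocytes (log2 1.64, SE 0.11, FDR 1.34e-10). With library sizes alone the log2 changes were 0.92 (FDR 1.8e-07) and 0.77 (FDR 1.82e-06). The coefficient of variation of the GV libraries was 1.36% in the 4 that were fitted and 4.92% in all 5, and with library sizes alone the 4 had 289 ± 28.5 CPM.

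Nearly all MASTL signal came from its 3663-base transcript, which held 99.7 to 100% of the gene's TPM in each group's libraries. The other annotated transcript, of 2816 bases, had at most 18.3 estimated counts in any library, so its usage was not tested. Over the 14 fitted libraries the genes whose centred log2 CPM followed MASTL most closely, among 10947 with a symbol, were NAA35 (root mean square difference 0.0865), MAPK6 (0.0903) and TRPM7 (0.0929). Their log2 changes were 1.82, 1.84 and 1.89 in MII versus GV and 1.65, 1.75 and 1.74 in ‘damaged’ versus GV. The likeness describes these 14 libraries and was not tested.

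**Figure D2:**
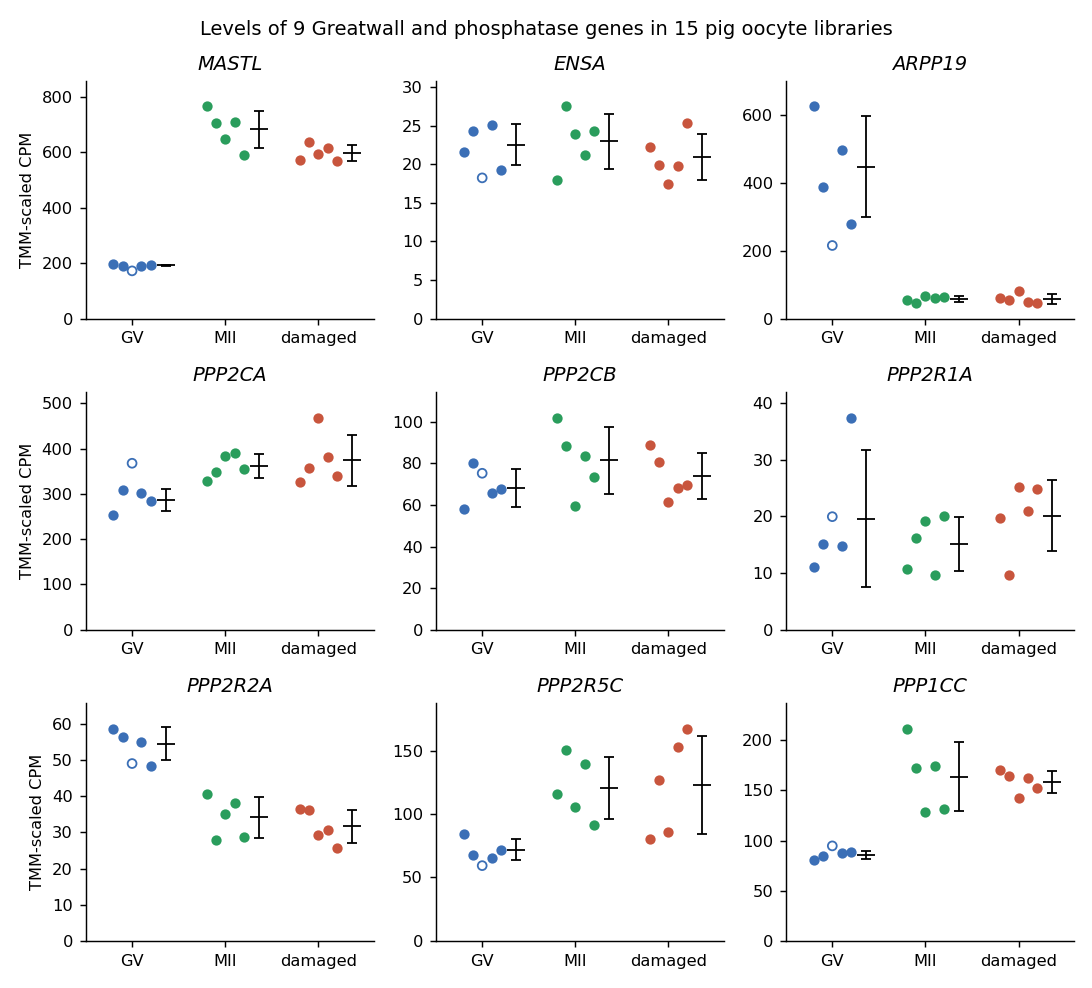
TMM-scaled CPM (vertical axes, from 0) of each gene in the 5 GV, 5 MII and 5 ‘damaged’ libraries; each point is a library, the open circle is GV library 3, and bars are mean ± SD without it. MASTL, PPP1CC, ARPP19 and PPP2R2A separate the GV libraries from all cultured libraries on this scale (PPP1CC not with library sizes alone), and ENSA does not.

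ARPP19 and ENSA encode the paralogous Greatwall substrates, and the gap between their levels was narrower after culture. ARPP19 (chr1:119134318-119157169) fell after culture more than any other of the 9 genes. GV libraries 1, 2, 4 and 5 had 626, 390, 498 and 278 CPM, and GV library 3 had 216. MII libraries 1 to 5 had 54.4, 46.8, 66.0, 59.7 and 63.1 CPM, and ‘damaged’ libraries 1 to 5 had 60.8, 55.5, 82.0, 49.3 and 45.1 CPM. The GV libraries spread widely, but the lowest of all 5 stood above the highest cultured library. The level was 7.4-fold lower in MII (log2 -2.89, SE 0.207, FDR 2.99e-10) and 7.45-fold lower in ‘damaged’ oocytes (log2 -2.90, SE 0.206, FDR 3.03e-10). With Kallisto counts summed over transcripts in place of length-scaled counts, the fall was smaller, with log2 changes of -1.78 and -1.80 (FDR 1.59e-08 and 1.42e-08), so ARPP19 still differed but was no longer a DEG.

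ENSA (chr4:98527902-98535647) was among the lower of the 9 genes, at the 68.3rd percentile of tested genes in GV by TPM, and its change depended on how it was counted. GV libraries 1, 2, 4 and 5 had 21.5, 24.2, 25.0 and 19.2 CPM, and GV library 3 had 18.2. The MII libraries had 18.0, 27.5, 23.9, 21.2 and 24.3 CPM, and the ‘damaged’ libraries 22.2, 19.9, 17.5, 19.8 and 25.3 CPM. The groups overlapped throughout. The log2 difference was 0.03 in MII versus GV (95% interval -0.29 to 0.36, FDR 0.854) and -0.10 in ‘damaged’ versus GV (-0.43 to 0.23, FDR 0.579). With library sizes alone it was -0.88 (FDR 0.000117) and -0.97 (FDR 4.13e-05). With summed Kallisto counts it was -1.12 in each comparison (FDR 2.21e-06 and 2.2e-06). The 2 ENSA transcripts are of unequal length, and their shares are given next.

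The ENSA signal passed from a long to a short annotated transcript. The 555-base transcript held 16.2, 8.48, 22.4 and 6.58% of the gene's TPM in GV libraries 1, 2, 4 and 5, and GV library 3 had no count for it. In the MII libraries it held 71.1, 72.1, 64.9, 67.5 and 68.4%, and in the ‘damaged’ libraries 70.0, 68.5, 58.0, 63.4 and 62.2%. No cultured library came near the GV range. The mean share rose by 55.4 percentage points in MII (FDR 5.9e-07) and by 51 points in ‘damaged’ oocytes (FDR 2.15e-06). In TPM, the 3554-base transcript went from 22.7 ± 4.31 (SD, n = 4) in GV to 4.06 ± 0.862 (n = 5) in MII and 4.39 ± 1.19 (n = 5) in ‘damaged’ oocytes, and the 555-base transcript from 3.46 ± 2.0 to 8.91 ± 1.46 and 7.93 ± 1.70. The short transcript rested on few reads, with 5.37 to 20.9 estimated counts in the 4 GV libraries, 24.5 to 49.1 in MII and 30.4 to 42.7 in ‘damaged’ libraries. The long one had 595 to 718 counts in the 4 GV libraries and 93.8 to 245 in the cultured ones.

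ARPP19 shifted the other way, toward its longer transcript. The 1041-base transcript held 94.9, 91.1, 93.4 and 90.1% of ARPP19 TPM in GV libraries 1, 2, 4 and 5, and 69.4% in GV library 3. It held 54.4, 55.3, 69.3, 57.1 and 69.8% in MII and 64.2, 52.6, 69.2, 64.0 and 57.9% in ‘damaged’ libraries. The 4 fitted GV libraries stood above all cultured ones, while GV library 3 lay inside the cultured range. Its mean share fell by 31.2 points in MII (FDR 2.47e-08) and by 30.8 points in ‘damaged’ oocytes (FDR 2.49e-08). Both transcripts had lower TPM after culture: the 1041-base transcript went from 429 ± 88.6 in GV to 18.8 ± 5.60 in MII and 19.5 ± 6.38 in ‘damaged’ oocytes, and the 5195-base transcript from 34.0 ± 4.64 to 11.5 ± 1.30 and 11.8 ± 1.77. These TPM values are a description, as only the shares were tested. Reads that fit more than 1 transcript or paralog were divided by Kallisto's estimation, so the split is uncertain to that extent.

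The balance of the pair inside a library does not depend on the scaling between libraries. ENSA TPM was 0.0373, 0.0675, 0.0546 and 0.0750 of ARPP19 TPM in GV libraries 1, 2, 4 and 5, and 0.0917 in GV library 3. The ratio was 0.359, 0.637, 0.392, 0.387 and 0.418 in MII and 0.397, 0.390, 0.231, 0.436 and 0.610 in ‘damaged’ libraries. ARPP19 remained the more abundant of the pair in all 15 libraries. The ratio was 7.57-fold higher in MII than in GV oocytes (exact permutation test, two-sided, p = 0.0159, adjusted over 9 tests 0.0357) and 6.96-fold higher in ‘damaged’ oocytes (exact permutation p = 0.0159, adjusted 0.0357). With 5 libraries against 4, 0.0159 is the smallest p that the test can give. Blocked by library number, the exact test gave p = 0.125 in each comparison, the smallest it allows. The ratio does depend on how reads were divided between transcripts of unequal length. With summed Kallisto counts the log2 changes of ENSA and ARPP19 were -1.12 and -1.78 in MII, and -1.12 and -1.80 in ‘damaged’ oocytes. The ratio of summed counts was not tested.

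**Figure D3:**
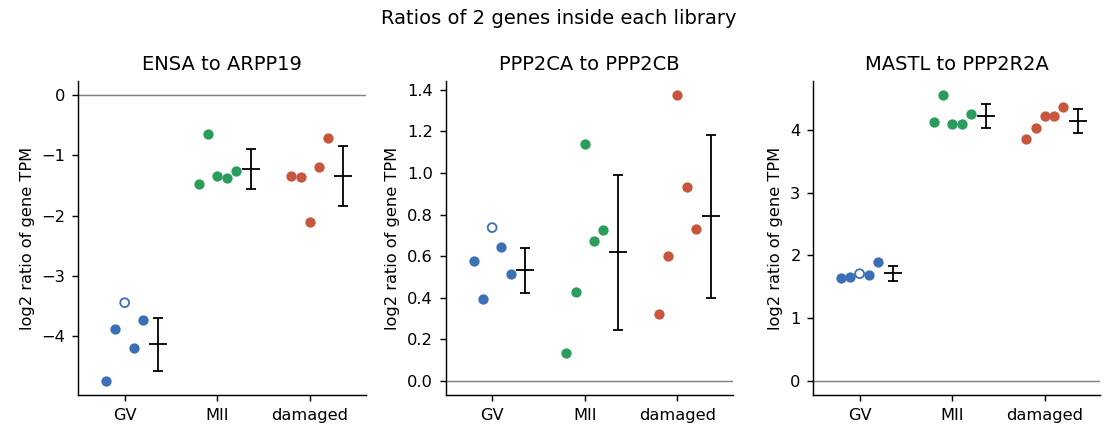
Log2 ratio of the TPM of a gene pair inside each library (vertical axes) for 3 pairs; each point is a library, the open circle is GV library 3, and bars are mean ± SD without it. ENSA to ARPP19 and MASTL to PPP2R2A are higher in every cultured library than in every GV library, and PPP2CA to PPP2CB overlaps between the groups.

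Of the catalytic subunits of PP2A, neither PPP2CA nor PPP2CB differed from GV at an FDR under 0.01. PPP2CA (chr2:136497780-136522630) had 254, 309, 302 and 283 CPM in GV libraries 1, 2, 4 and 5, and 368 in GV library 3. It had 328, 349, 384, 390 and 356 CPM in MII and 326, 358, 468, 382 and 339 CPM in ‘damaged’ libraries. The 4 fitted GV libraries lay below all cultured ones, but GV library 3 lay among them. The log2 difference was 0.34 in MII (95% interval 0.08 to 0.60, FDR 0.0204) and 0.38 in ‘damaged’ oocytes (0.12 to 0.64, FDR 0.0101). The direction flipped with library sizes alone, to -0.57 (FDR 0.000745) and -0.48 (FDR 0.00285), and DESeq2 with its own size factors called the positive difference in both (adjusted p 0.00348 and 0.0015). In ‘damaged’ versus GV, limma also called it without a filter on low counts (FDR 0.00585) and with summed Kallisto counts (FDR 0.00491).

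PPP2CB (chr15:54295786-54325220) had 58.2 to 80.4 CPM in the 5 GV libraries, 59.6 to 102 in MII and 61.7 to 89.1 in ‘damaged’ libraries. These ranges overlapped. The log2 difference was 0.25 in MII (95% interval -0.09 to 0.58, FDR 0.17) and 0.12 in ‘damaged’ oocytes (-0.21 to 0.45, FDR 0.517), and with library sizes alone it was -0.66 (FDR 0.0013) and -0.75 (FDR 0.000445). Inside a library, PPP2CA TPM was 1.31 to 1.67 times PPP2CB TPM in all 5 GV libraries, 1.10 to 2.20 times in MII and 1.25 to 2.59 times in ‘damaged’ libraries. The ratio did not pass an exact permutation test in MII versus GV (1.06-fold, p = 0.683, adjusted 0.762) or ‘damaged’ versus GV (1.20-fold, exact permutation p = 0.238, adjusted 0.429). The coding sequences of the pair are close paralogs, so reads that fit both were divided by Kallisto and the split between them is uncertain to that extent.

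The scaffold gene PPP2R1A (chr6:57929520-57964948) was the lowest of the 9 genes in mean TPM in each group and varied widely, with a coefficient of variation of 61.4% in GV oocytes. GV libraries 1, 2, 4 and 5 had 11.01, 15.1, 14.9 and 37.4 CPM, and GV library 3 had 19.97. The MII libraries had 9.70 to 20.2 CPM and the ‘damaged’ libraries 9.67 to 25.3 CPM, so the groups overlapped. Log2 differences were -0.28 (95% interval -0.97 to 0.42, FDR 0.469) in MII and 0.13 (-0.55 to 0.81, FDR 0.732) in ‘damaged’ oocytes. With library sizes alone they were -1.17 (FDR 0.00848) and -0.73 (FDR 0.0794). GV library 5 carried much of this, and without it the log2 differences were 0.11 and 0.51, neither called. In ‘damaged’ oocytes the interval of the fit with it spans 0.683- to 1.75-fold of the GV level. Its 2 annotated transcripts did not pass the usage test (FDR 0.194 and 0.101).

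PPP2R2A, the B55 alpha regulatory subunit gene (chr14:10195388-10283741), fell after culture and also changed its transcript. GV libraries 1, 2, 4 and 5 had 58.7, 56.4, 55.0 and 48.2 CPM, and GV library 3 had 49.0. MII libraries 1 to 5 had 40.7, 27.8, 35.2, 38.2 and 28.7 CPM, and the ‘damaged’ libraries had 36.6, 36.1, 29.4, 30.6 and 25.6 CPM. All 5 GV libraries lay above all 10 cultured ones. The level was 1.61-fold lower in MII (log2 -0.69, SE 0.150, FDR 0.000407) and 1.73-fold lower in ‘damaged’ oocytes (log2 -0.79, SE 0.150, FDR 9.83e-05). With summed Kallisto counts the log2 differences were only -0.19 (FDR 0.254) and -0.24 (FDR 0.164), and the calls were lost.

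The 2246-base PPP2R2A transcript gave most of the gene's TPM in GV oocytes and little after culture. Its TPM was 24.5, 29.2, 27.8 and 25.4 in GV libraries 1, 2, 4 and 5, and 14.6 in GV library 3. In MII libraries 1 to 5 it was 0.252, 0.303, 5.75, 0.490 and 1.45 TPM, and in the ‘damaged’ libraries 0.461, 0.555, 1.35, 0.319 and 0 TPM. MII library 3 stood apart with 126 estimated counts for it, against 5.06 to 43.0 in the other MII libraries. The 3884-base transcript had 8.45, 11.6, 8.91 and 14.3 TPM in the 4 fitted GV libraries, and 20.8 in GV library 3. It had 7.24 to 13.0 TPM in MII and 8.88 to 11.3 in ‘damaged’ libraries. TPM carries no TMM factors, so a similar TPM in GV and cultured libraries is not a similar level in TMM-scaled CPM. The level of this transcript on that scale was not tested. In TPM, the lower PPP2R2A level after culture thus lay in the shorter transcript. Its mean share of the gene went from 71.4% ± 5.24 (SD, n = 4) in GV to 13.7% ± 17.9 (n = 5) in MII and 4.97% ± 4.92 (n = 5) in ‘damaged’ oocytes. Both falls passed the usage test (57.7 points, FDR 6.3e-07, and 66.4 points, FDR 1.46e-06). The share in MII library 3 (44.3%) was above that in GV library 3 (41.2%), which was not in the fit.

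**Figure D4:**
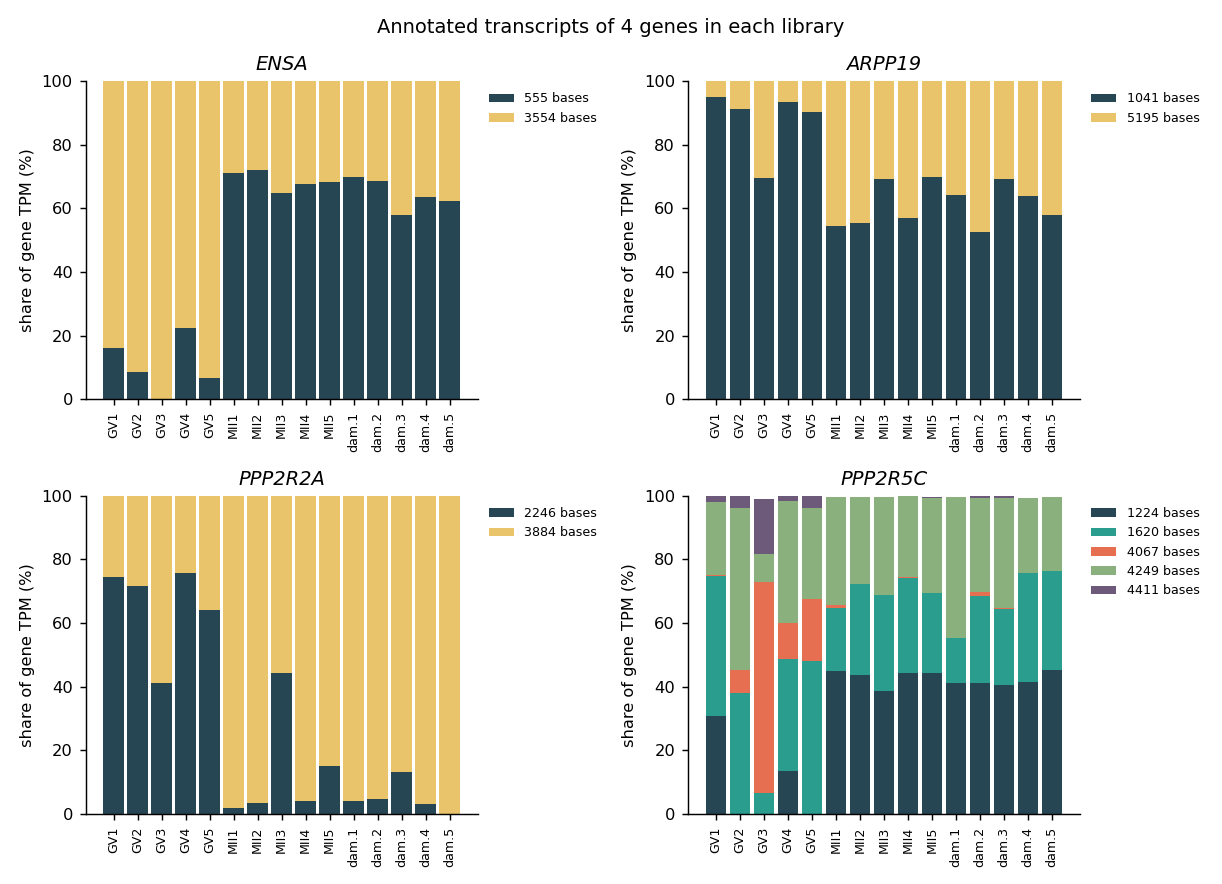
Share of the gene's TPM (vertical axes, percent) held by each annotated transcript, named by its length in bases, in each of the 15 libraries (dam. is ‘damaged’; transcripts that never reach 2% are not drawn). The shares change between GV and cultured libraries in all 4 genes, and GV library 3 and, for PPP2R2A, MII library 3 stand apart from the rest of their groups.

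PPP2R5C encodes the gamma subunit of the B56 family, which directs PP2A to other substrates than B55 does, and RefSeq places it on a scaffold with no chromosome assigned. GV libraries 1, 2, 4 and 5 had 83.9, 67.3, 65.2 and 71.3 CPM, and GV library 3 had 59.3. MII libraries 1 to 5 had 116, 150, 105, 139 and 91.2 CPM, and the ‘damaged’ libraries had 80.7, 127, 85.9, 152 and 167 CPM. The MII libraries were all above the GV libraries, while ‘damaged’ library 1 lay below GV library 1. The rise was 1.66-fold in MII (log2 0.73, SE 0.205, FDR 0.00345) and 1.65-fold in ‘damaged’ oocytes (log2 0.72, SE 0.205, FDR 0.00392) with TMM factors, but the sign turned and the call was lost with library sizes alone (log2 -0.18, FDR 0.452, and -0.15, FDR 0.518). It also missed the threshold with summed Kallisto counts (FDR 0.0284 and 0.0224) and without any of GV 2, GV 4, MII 2 or MII 4 in MII versus GV (FDR 0.0112 to 0.0122), or GV 2, GV 4, ‘damaged’ 4 or ‘damaged’ 5 in ‘damaged’ versus GV (FDR 0.0102 to 0.0138).

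Of the 7 PPP2R5C transcripts with a count, 6 were tested for usage and the 1224-base transcript was called. It held 30.8, 0, 13.3 and 0.000291% of the gene's TPM in GV libraries 1, 2, 4 and 5, and had no count in GV library 3. In MII libraries it held 44.95, 43.6, 38.7, 44.4 and 44.1%, and in ‘damaged’ libraries 41.1, 41.1, 40.6, 41.4 and 45.2%. The cultured libraries were thus close to each other and all above the GV libraries, which were scattered. The mean share rose by 32.1 points in MII (FDR 0.000748) and by 30.9 points in ‘damaged’ oocytes (FDR 0.000783). GV library 3 had 66.2% in the 4067-base transcript, against 0.424 to 19.2% in the other GV libraries.

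PPP1CC, the PP1 gamma catalytic subunit gene (chr14:32071472-32091267), rose with TMM factors and did not differ with library sizes. GV libraries 1, 2, 4 and 5 had 80.9, 84.97, 87.9 and 89.0 CPM, and GV library 3 had 94.7. MII libraries 1 to 5 had 211, 172, 129, 174 and 132 CPM, and the ‘damaged’ libraries had 170, 164, 143, 162 and 153 CPM. All 5 GV libraries lay below all cultured ones. The rise was 1.88-fold in MII (log2 0.91, SE 0.142, FDR 1.02e-05) and 1.85-fold in ‘damaged’ oocytes (log2 0.89, SE 0.142, FDR 1.42e-05). With library sizes alone the log2 differences were 0.00105 (FDR 0.995) and 0.02 (FDR 0.909). Its 2344-base transcript held 82.8 to 96.5% of the gene's TPM in every library, and none of the 3 transcripts tested was called.

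Transcript usage was tested for 6 of the 9 genes, and 4 of them (ENSA, ARPP19, PPP2R2A and PPP2R5C) had a called transcript in MII versus GV and in ‘damaged’ versus GV. Among all 5299 genes tested, 37.6% and 37.3% had one, and of all 14531 transcripts tested 25.6% and 25.2% were called. The calls were made at an FDR under 0.01 with a change of more than 10 percentage points in the mean share. MASTL, PPP2CA and PPP2CB could not be tested, since at most 1 of their annotated transcripts passed the filter. ENSA was the gene of the 9 with a called transcript and no called difference in its gene level.

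Levels of different genes are compared in TPM, which corrects for transcript length. In GV oocytes ARPP19 led with 463 ± 85.6 TPM (SD, n = 4), followed by PPP2CA (157 ± 31.8), MASTL (124 ± 19.0), PPP2CB (110 ± 26.9), PPP1CC (92.4 ± 17.6) and PPP2R5C (68.6 ± 8.94). The ranges of ARPP19 and PPP2CA did not overlap, while each later neighbour in this row overlapped with the next. PPP2R2A (37.5 ± 3.50), ENSA (26.2 ± 4.04) and PPP2R1A (13.3 ± 10.2) came last, with ENSA and PPP2R1A overlapping. In MII oocytes MASTL led with 213 ± 17.6 TPM (n = 5), above PPP2CA (95.2 ± 10.8), PPP1CC (84.3 ± 14.7), PPP2CB (62.3 ± 9.64) and PPP2R5C (55.7 ± 9.44). ARPP19 had fallen to the sixth place with 30.3 ± 5.52 TPM, ahead of ENSA (13.0 ± 2.17), PPP2R2A (11.4 ± 2.02) and PPP2R1A (4.71 ± 1.66). No MII library of MASTL overlapped with PPP2CA, and ENSA overlapped with PPP2R2A. The order in ‘damaged’ oocytes was that of MII oocytes except that PPP2R5C (60.0 ± 23.2) stood before PPP2CB (58.7 ± 6.74), whose ranges overlapped, and MASTL led with 193 ± 14.8 TPM.

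The kinase and the B55 alpha subunit were also set against each other inside each library. MASTL TPM was 3.11, 3.15, 3.21 and 3.72 times PPP2R2A TPM in GV libraries 1, 2, 4 and 5, and 3.27 times in GV library 3. It was 17.5, 23.6, 17.1, 17.2 and 19.1 times in MII and 14.6, 16.4, 18.8, 18.8 and 20.6 times in ‘damaged’ libraries. The lowest cultured library thus stood well above the highest GV library. The ratio was 5.70-fold higher in MII than in GV (exact permutation p = 0.0159, adjusted 0.0357) and 5.39-fold higher in ‘damaged’ oocytes (exact permutation p = 0.0159, adjusted 0.0357). The other B55 gene named by the rule, PPP2R2D, is not part of this ratio. Blocked by library number, the exact test gave p = 0.125 in each comparison. With summed Kallisto counts the log2 changes of MASTL and PPP2R2A were 1.86 and -0.19 in MII, and 1.67 and -0.24 in ‘damaged’ oocytes. The ratio of those summed counts was not tested.

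Between MII and ‘damaged’ oocytes, which were cultured alike and differ in the polar body, none of the 9 genes passed the threshold. No gene of the 13149 was called (0%) by limma, edgeR or DESeq2, and 193 genes by limma, 269 by edgeR and 249 by DESeq2 had an unadjusted p under 0.05, none of the 9 among the first. MASTL had the smallest p of the 9, with 682 ± 66.9 against 597.3 ± 29.4 CPM and a log2 difference of 0.19 (95% interval -0.03 to 0.40, unadjusted limma p 0.0816). For ARPP19 the difference was 0.01 (-0.43 to 0.45), for PPP2R2A 0.11 (-0.21 to 0.42) and for PPP1CC 0.02 (-0.25 to 0.30). The intervals of ENSA, PPP2CA, PPP2CB and PPP2R5C lay between -0.39 and 0.46. PPP2R1A had the widest interval, from -1.08 to 0.27, and a lower mean in MII (15.2 ± 4.80 against 20.1 ± 6.32 CPM). The MII and ‘damaged’ libraries overlapped for all 9 genes, where 0.266% of all genes had no overlap (0.0913% higher in MII, 0.175% lower). Differences inside these intervals were not detectable with 5 libraries a group, and a missed threshold does not show that the groups were equal.

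Transcript usage and ratios gave no call between MII and ‘damaged’ oocytes either. No transcript of the 9 genes was called, and none of the 14531 tested was, at an FDR under 0.01. The largest change among the 6 genes was in PPP2R2A, with 8.74 points more of the 2246-base transcript in MII (unadjusted p 0.134), where MII library 3 alone had 44.3%. The ratios differed by 1.09-fold for ENSA to ARPP19 (exact permutation p = 0.762), 1.13-fold for PPP2CA to PPP2CB, lower in MII (exact permutation p = 0.492), and 1.06-fold for MASTL to PPP2R2A (exact permutation p = 0.54).

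The related lists below are to be read against all genes, of which 28.2% were higher and 34.2% lower in MII versus GV with TMM factors, and 27.9% and 33.4% in ‘damaged’ versus GV. With library sizes alone, 11% of all genes were higher and 57.5% lower in MII, and 11.2% and 55.9% in ‘damaged’ oocytes. The other subunits of PP2A divided. Of 13 listed, 12 were tested, and in MII versus GV 6 were higher, 3 lower and 3 not past the threshold, with a median log2 fold change of 0.44 against -0.17 for all genes. In ‘damaged’ versus GV, 5 were higher, 3 lower and 4 not past it, with a median of 0.34 against -0.14. With library sizes alone, 1 was higher and 6 were lower in each comparison. PPP2R1B, the other scaffold gene, went from 288 ± 19.0 CPM in GV to 572 ± 97.5 in MII (log2 0.98, FDR 2.27e-06) and 533 ± 47.2 in ‘damaged’ oocytes (log2 0.89, FDR 7.3e-06), and with library sizes it was not called (FDR 0.633 and 0.865). PPP2R3C, of the B'' family, had log2 changes of 1.38 and 1.33 and the B56 alpha gene PPP2R5A of 1.25 and 1.30, and with library sizes the first was still higher (0.46, FDR 0.00508, and 0.46, FDR 0.00576) and the second was not called (FDR 0.103 and 0.0427).

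Among the lower PP2A subunits, PPP2R5D, the B56 delta gene, was the only DEG of the list in each comparison. It had 19.2 ± 10.7 CPM in GV, 1.06 ± 0.605 in MII and 1.37 ± 0.377 in ‘damaged’ oocytes (log2 -4.25, FDR 1.04e-07, and -3.68, FDR 2.02e-07). The B56 beta gene PPP2R5B (-1.13 and -1.31) and the B55 beta gene PPP2R2B (-1.01 and -0.99) were lower as well. All of these stayed lower with library sizes alone.

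Of the 14 listed assembly factors and inhibitors of PP2A, 6 were tested. In MII versus GV 3 were higher, 2 lower and 1 not past the threshold, and in ‘damaged’ versus GV 2 were higher, 2 lower and 2 not past it, with medians of 0.48 and 0.33. None was higher and 3 were lower with library sizes alone in each comparison, where 11% and 57.5% of all genes were higher and lower in MII and 11.2% and 55.9% in ‘damaged’ oocytes. CIP2A, an inhibitor of B56-type PP2A, had log2 changes of 1.14 (FDR 1.58e-07) and 1.03 (FDR 6.28e-07), and PABIR2 0.83 and 0.64. Neither was called with library sizes alone (FDR 0.0813 and 0.217 for CIP2A, 0.689 and 0.238 for PABIR2). PTPA, which helps to activate the catalytic subunit, fell with log2 changes of -2.37 (FDR 1.51e-05) and -2.24 (FDR 2.59e-05), and ARPP21 with -1.18 and -1.13, both also with library sizes. ARPP21 shares a name with ARPP19 but is not of the ENSA and ARPP19 family and is not known as a PP2A inhibitor, although it was on the list.

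For PP1, 11 of 12 listed subunits and inhibitors were tested. In MII versus GV 4 were higher, 3 lower and 4 not past the threshold, and in ‘damaged’ versus GV 4 were higher, 2 lower and 5 not past it, with medians of 0.23 and 0.36 and no DEG. Library sizes alone gave 1 higher and 5 lower in MII and 1 higher and 6 lower in ‘damaged’ oocytes. On that scale 57.5% and 55.9% of all genes were lower. PPP1R12A, the myosin phosphatase targeting subunit, had log2 changes of 1.38 and 1.40, which stayed positive with library sizes (0.47, FDR 0.00177, and 0.54, FDR 0.00057). CDCA2 (1.06 and 0.91), which brings PP1 gamma to chromatin, and PPP1R8 (0.66 and 0.64) were not called with library sizes (FDR 0.485 and 0.846, and 0.316 and 0.346). PPP1R11 (-1.90 and -1.93) and PPP1R10 (-1.14 and -1.17) were lower under both scalings.

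Among the other phosphatases of the same family, 13 of 14 listed genes were tested. In MII versus GV 6 were higher, 5 lower and 2 not past the threshold, and in ‘damaged’ versus GV 5 were higher, 5 lower and 3 not past it, with medians of 0.01 and -0.07. Library sizes alone gave 1 higher and 7 lower in each comparison, where 57.5% and 55.9% of all genes were lower. PPP6C, the catalytic subunit of PP6, was a DEG, from 210 ± 18.7 CPM in GV to 1268 ± 98.3 in MII and 1182 ± 119 in ‘damaged’ oocytes (log2 2.6, FDR 2e-12, and 2.49, FDR 3.21e-12), and it stayed higher with library sizes (1.69 and 1.63). PPP4R3A (1.38 and 1.26) and PPP5C (1.16 and 1.72) were higher with TMM factors and were not called with library sizes (FDR 0.0104 and 0.033, and 0.523 and 0.0286). PPP4C (-2.69 and -2.06), PPP3CC (-2.27 and -2.11) and PPP6R2 (-1.89 and -1.55) were lower under both scalings, the former pair as DEGs. The catalytic subunits of PP4 and PP6 thus moved in opposite directions.

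The genes that control cyclin B-CDK1, the kinase upstream of Greatwall, changed in both directions. Of 14 listed, 13 were tested, and in each comparison with GV 6 were higher, 4 lower and 3 not past the threshold, with medians of 0.04 and 0.06 and 4 DEGs. With library sizes alone 3 were higher and 7 lower in each, where 57.5% and 55.9% of all genes were lower. CCNB1, which encodes cyclin B1, went from 929 ± 227 CPM in GV to 5493 ± 507 in MII and 5108 ± 508 in ‘damaged’ oocytes (log2 2.59 and 2.49). CDK1 itself went from 434 ± 257 CPM to 25.0 ± 6.63 and 22.6 ± 1.87 (log2 -3.96, FDR 3.25e-10, and -4.08, FDR 2.51e-10). WEE2, an oocyte kinase that inhibits CDK1, had log2 changes of 1.98 and 1.87, and CKS1B, a CDK-binding protein, of 1.88 and 1.90. The phosphatases that activate CDK1 were lower, CDC25B at -4.51 and -3.68 and CDC25A at -3.13 in each. Each of these 6 genes kept its direction and its call with library sizes alone.

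MASTL belongs by name to the microtubule-associated serine/threonine (MAST) kinases, of which 4 others were listed and 3 tested. None was higher, 2 were lower as DEGs and 1 did not pass the threshold in each comparison with GV. MAST3 had log2 changes of -3.38 (FDR 2.65e-08) and -3.52 (FDR 2.4e-08), and MAST2 of -2.13 (FDR 2.51e-09) and -2.20 (FDR 1.72e-09), both lower with library sizes too. In MII versus ‘damaged’ oocytes no gene of any of these lists was called by limma, and 1 gene of the cyclin B-CDK1 list had an unadjusted p under 0.05.

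**Figure D5:**
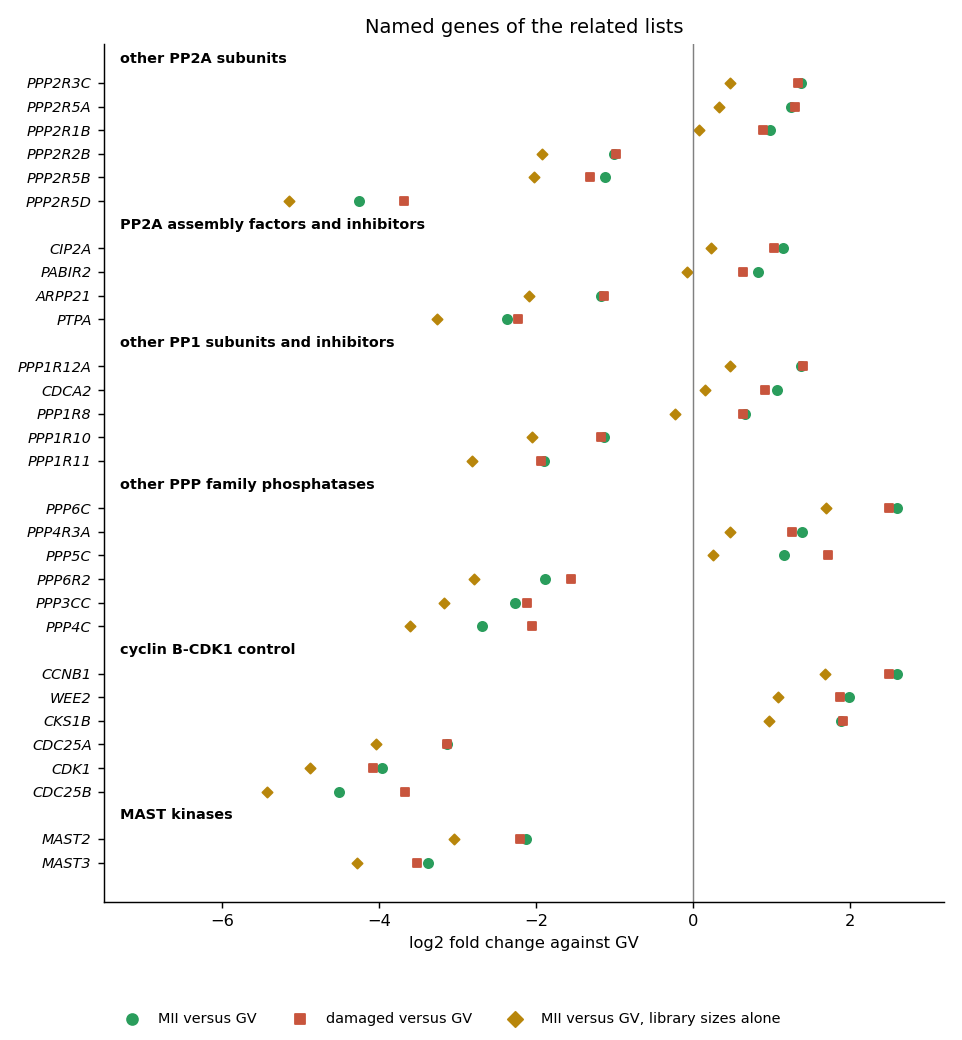
Log2 fold change against GV (horizontal axis) of the genes named from 6 related lists in MII (circles) and ‘damaged’ oocytes (squares) with TMM factors, and in MII with library sizes alone (diamonds). PPP6C and CCNB1 lie above 2 and PPP2R5D, CDC25B and CDK1 below -3 in both kinds of cultured oocytes.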

How the data were processed

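The authors trimmed reads of SMART-Seq HT libraries (75 bp, single-end) with AfterQC and made estimated counts and TPM values per transcript with Kallisto (0.43 per the processing notes) from the Ensembl cDNA of Sscrofa11.1. The deposited TPM values are normalized by the authors so that every library has an equal sum. The authors made estimated counts per gene with tximport (lengthScaledTPM), not normalized between libraries. The kit primes cDNA at poly(A) tails, so the values describe polyadenylated RNA.

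Of the 15 columns of the gene table, 7 disagreed with the label they carry and were not used. The transcripts of 17636 genes were found by matching TPM sums to the other 8 columns, and lengthScaledTPM counts were computed for all 15 libraries. Matched transcripts held 99.9 to 100% of counts.

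The fit was limma-voom (limma 3.58.1, edgeR 4.0.16, R 4.3.3) with TMM factors after filterByExpr (minimum count 10), 14 libraries and 3 groups, with Benjamini-Hochberg adjustment over 13149 genes. A gene differed at an FDR under 0.01, and a DEG also had an absolute log2 fold change over 2. Usage was tested with diffSplice, and ratios by two-sided exact permutation (scipy) of log2 TPM ratios. Of 4 planned ratios, 3 were computed, without PPP2R2D, and adjusted over 9 tests. Fits were also run on simulated data in which few genes changed, in both directions. Those runs cannot bear on the choice of scaling. Alternatives were library sizes, upper-quartile factors, edgeR's quasi-likelihood test and DESeq2 1.42.0 on rounded counts, other filters, all 5 GV libraries, summed Kallisto counts, library weights, a replicate block and leaving out each library.

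The members, lists and tests were chosen with earlier results of these data known. From each list, up to 3 highest and 3 lowest genes that differed in both comparisons with GV were named, CDK1 and CCNB1 in any case, and the 3 genes closest to MASTL by root mean square difference. The p-values measure the spread between libraries, whose independence rests on the study's methods. Positions are from RefSeq by symbol.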

Additional observations from a re-analysis of the deposited data

Results flagged for a closer look

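In groups of 5 libraries, 6 of the 48 sets tested held a library far from the other 4 by Dixon's test, which flags about 1 set in 20 by chance. GV library 3, the shallowest, had 172 CPM of MASTL against 189 to 196 in the other GV libraries, and 69.4% of ARPP19 TPM in the 1041-base transcript against 90.1 to 94.9%. The share of the 1224-base PPP2R5C transcript was 38.7% in MII library 3 against 43.6 to 44.95%, and 45.2% in ‘damaged’ library 5 against 40.6 to 41.4%. The log2 ratio of ENSA to ARPP19 was -0.65 in MII library 2 against -1.48 to -1.26. The log2 ratio of MASTL to PPP2R2A was 1.90 in GV library 5 against 1.64 to 1.71. None of these libraries crossed into the range of the other stage except GV library 3 for ARPP19.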

How the results depend on the processing

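With library sizes alone, 1 of the 9 genes was higher in each comparison with GV, and 6 (MII) and 5 (‘damaged’) were lower. Of all genes, 57.5% and 55.9% were lower on that scale. The log2 change turned to -0.88 for ENSA in MII versus GV, and in MII and ‘damaged’ to -0.57 and -0.48 for PPP2CA, -0.66 and -0.75 for PPP2CB and -0.18 and -0.15 for PPP2R5C. With summed Kallisto counts, ENSA turned to -1.12 in MII versus GV. With a filter of 10 CPM, 5368 and 5297 of 7449 genes differed, with 1377 and 1320 DEGs, as fewer genes were tested, and PPP2R5C (0.40 and 0.41) was not called (FDR 0.0765 and 0.0733). MASTL and ARPP19 differed from GV under every alternative run for gene levels. Usage was run with all 5 GV libraries, without a filter, with a block and without each library, and 4 of the genes had a called transcript under each of these. Leaving out each library gave 4 to 5 (MII) and 4 to 6 (‘damaged’) of the 9 genes. PPP2CA was called without ‘damaged’ 1 or 5 (FDR 0.00721 and 0.0058). Between MII and ‘damaged’, 11 transcripts of other genes were called without a filter, 1 with a replicate block and 3 without MII library 5.

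Same-numbered libraries correlated between groups at -0.0977 to 0.321, with a median of 0.065 against -0.00976 for other numbers. Of the same-numbered pairs 4 of 13 were over 0.1, against 3 of 52 with other numbers. As the labels tie no number to a collection, the numbers were not taken as pairs. By the study's methods each collection gave oocytes of every group, so libraries may be matched by collection. In 14 of 26 cases of a library set against another group, the closest of the 4 or 5 libraries there had its own number. Together with the shares over 0.1, that is a hint of pairing from the data. With a replicate block, 8295 and 8180 genes differed, and the same count of 5 of the 9 genes in each. For ratios the block allows no p under 0.125, and gave 2.95 and 2.99 for ENSA to ARPP19 and 2.55 and 2.41 for MASTL to PPP2R2A (log2, exact p = 0.125 each).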
